A study of Mus musculus with 20 samples.

Results

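Type I interferon stimulated genes outside the Ifit, Oas, Ifi200 and Schlafen families were followed in LLC-1 tumors that had received adenoviral vectors. They were taken from a list of 48 symbols, and 46 of them had a probe set that the annotation pairs with a single gene, out of 19938 such genes on the arrays. Ifi44 and Sp110 had no such probe set and were dropped. The rule for membership used no measured value, but the list was drawn up with earlier results of these data known. No filter on low values was applied, so all 46 genes entered every test.

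LLC-1 is a mouse Lewis lung carcinoma line, and the tumors were implants in C57Bl/6 mice. Gene expression was measured in total RNA on 20 Affymetrix arrays, 5 for each of 4 vectors. The eGFP group, the control, received an adenovector for enhanced green fluorescent protein, and the others received IFNbeta, p19Arf, or p19Arf together with IFNbeta (the combination). Per the labels, every group had 5 injections into the tumor at 48 h intervals, each of 25 µl with 100000000 infectious units. All 4 groups therefore carry adenovector, and untreated tumors were not analysed here. The promoter that drives the inserts, the interval from the last injection to collection and the age of the mice are not stated in the labels. Nor do the labels say whether replicates came from separate mice, so p-values measure only the spread between these samples, which may be technical. A tumor sample is a mixture of cell types, so fewer cells of a type and less RNA per cell cannot be told apart.

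Type I interferons bind a receptor found on nearly all cells and signal to the nucleus, where the interferon stimulated response element in target promoters is bound. The induced proteins block viral entry, replication and release, edit or degrade RNA, modify proteins with ubiquitin, the ubiquitin-like protein Isg15 or ADP-ribose, and, through Irf7, amplify the interferon response itself. In tumors these genes are read as a footprint of interferon acting on malignant, stromal and immune cells alike.

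The response element is the sequence these genes are known for, and promoters that hold its core are shown here for members described further on. Promoters were those of RefSeq (GRCm38.p6), 250 bases before to 50 after a start site, and 38 of the 46 genes were in that table. Mx1, Mx2, Rtp4, Ifi27l2a, Parp9, Parp10, Parp14 and Tor3a were not matched. The core searched was GAAA, any 2 bases and GAAA again, on both strands. It was found in 12 of the 38 genes (31.6%) and in 3.99% of the 27025 genes of the table, or in 22.8% of the members' promoters and 3.44% of all 32851 promoters. A match is a description and not a known binding site. The 5 genes whose core lay within the 150 bases before the start are printed with those bases, in the direction of transcription and with the core in capitals. On the opposite strand the core reads TTTC, 2 bases and TTTC.
Rsad2: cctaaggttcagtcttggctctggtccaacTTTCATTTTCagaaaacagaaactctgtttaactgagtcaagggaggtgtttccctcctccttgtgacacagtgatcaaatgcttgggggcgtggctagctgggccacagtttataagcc
Ddx60: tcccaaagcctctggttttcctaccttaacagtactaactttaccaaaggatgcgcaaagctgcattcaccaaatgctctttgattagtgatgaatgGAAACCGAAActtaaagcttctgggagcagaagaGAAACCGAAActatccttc
Bst2: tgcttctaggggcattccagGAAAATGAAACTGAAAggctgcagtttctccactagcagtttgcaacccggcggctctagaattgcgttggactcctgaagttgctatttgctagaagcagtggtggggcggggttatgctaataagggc
Parp11: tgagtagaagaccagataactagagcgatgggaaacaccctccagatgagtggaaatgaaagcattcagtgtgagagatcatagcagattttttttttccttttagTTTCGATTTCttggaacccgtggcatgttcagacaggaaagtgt
Lgals9: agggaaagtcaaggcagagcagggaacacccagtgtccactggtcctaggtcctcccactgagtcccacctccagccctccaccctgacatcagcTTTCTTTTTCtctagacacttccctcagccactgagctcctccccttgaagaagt
The positions are chr12:26456453-26456602 for Rsad2, chr8:61927937-61928086 for Ddx60, chr8:71537473-71537622 for Bst2, chr6:127446690-127446839 for Parp11 and chr11:78984925-78985074 for Lgals9. Rsad2, Bst2 and Lgals9 lie on the minus strand, and Ddx60 and Parp11 on the plus strand. The cores begin at base -120 from the start in Rsad2, at -53 and -19 in Ddx60, at -130 and -124 in Bst2, where they overlap, at -44 in Parp11 and at -55 in Lgals9, which had another at base 16, after the start. The core was also found in Trim30a, Eif2ak2, Trim21, Ifitm3, Tdrd7, Shisa5 and Ogfr. The median difference of IFNbeta from eGFP was 0.18 on the log2 scale for the 12 genes with a core and 0.20 for the 26 matched genes without one.

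The 46 genes stood at their highest mean level in tumors with the IFNbeta vector. The mean of their log2 values on an array was 9.84 ± 0.04 (SD, n = 5) with eGFP, 10.10 ± 0.18 with IFNbeta, 9.75 ± 0.16 with p19Arf and 9.84 ± 0.09 with the combination. On the eGFP arrays it was 9.80, 9.83, 9.82, 9.86 and 9.90 in replicates 1 to 5. On the IFNbeta arrays it was 9.98, 9.99, 10.38, 10.00 and 10.18. All 5 IFNbeta arrays thus lay above all 5 eGFP arrays, and replicate 3 lay highest. The p19Arf arrays, at 9.90, 9.91, 9.79, 9.57 and 9.60, and the combination arrays, at 9.85, 9.94, 9.92, 9.78 and 9.72, both overlapped with the eGFP arrays.

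**Figure D1:**
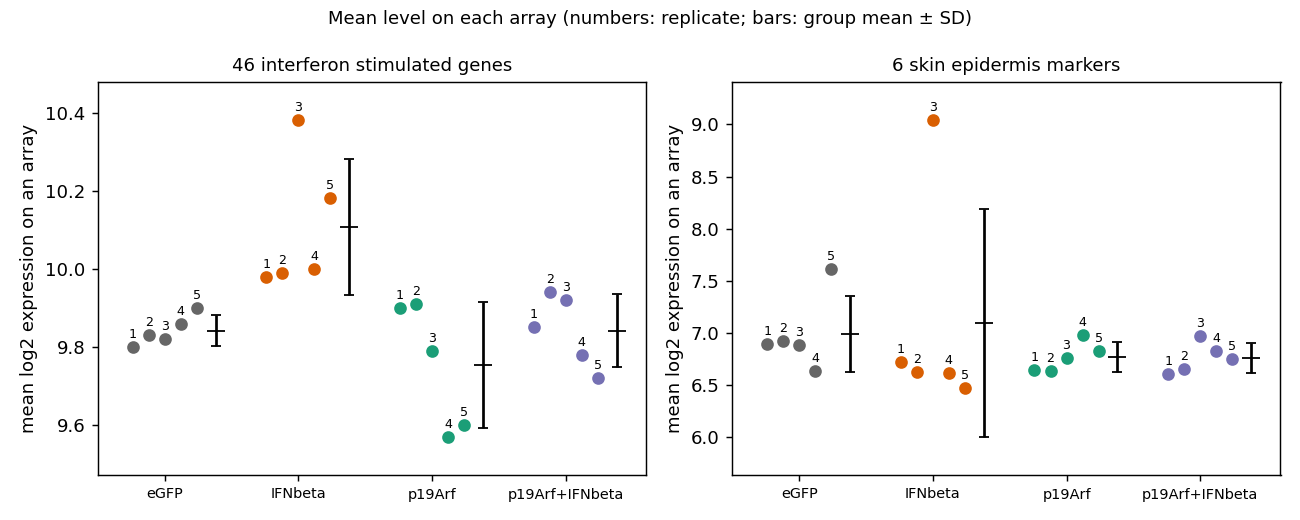
Left, the mean log2 expression of the 46 genes on each array, by vector group; right, the same for 6 skin epidermis markers. Points are arrays with their replicate number, and bars are the group mean ± SD. The 5 IFNbeta arrays lie between 9.98 and 10.38 in the left plot, above the eGFP arrays, and IFNbeta replicate 3 is highest in both plots.

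IFNbeta replicate 3 stood apart from the other arrays. It held the highest of the 20 values in 27 of the 46 genes, and in 3.09% of all genes. Its mean over 6 skin epidermis markers (keratins among them) was 9.04, against 6.47 to 6.72 on the other IFNbeta arrays and at most 7.61 elsewhere. Its proliferation markers were at 10.58, and at 11.02 to 11.18 on the other IFNbeta arrays. The part of these differences in the interferon stimulated genes of that array was not tested, and values without it are given beside the results on IFNbeta that it moved most. IFNbeta replicate 5 was highest in 11 of the 46 genes (12.4% of all genes), and p19Arf replicates 4 and 5 were lowest in 14 and 10 of them (14.1% and 2.53% of all genes).

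The spread between replicates also differed between groups. The median SD of a member was 0.14 with eGFP, 0.22 with IFNbeta, 0.23 with p19Arf and 0.17 with the combination, on the log2 scale. Over all genes it was 0.15, 0.16, 0.20 and 0.19. Without IFNbeta replicate 3, the median SD of a member in the IFNbeta group was 0.13, and the group's member mean was 10.03 ± 0.09 (n = 4).

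**Figure D2:**
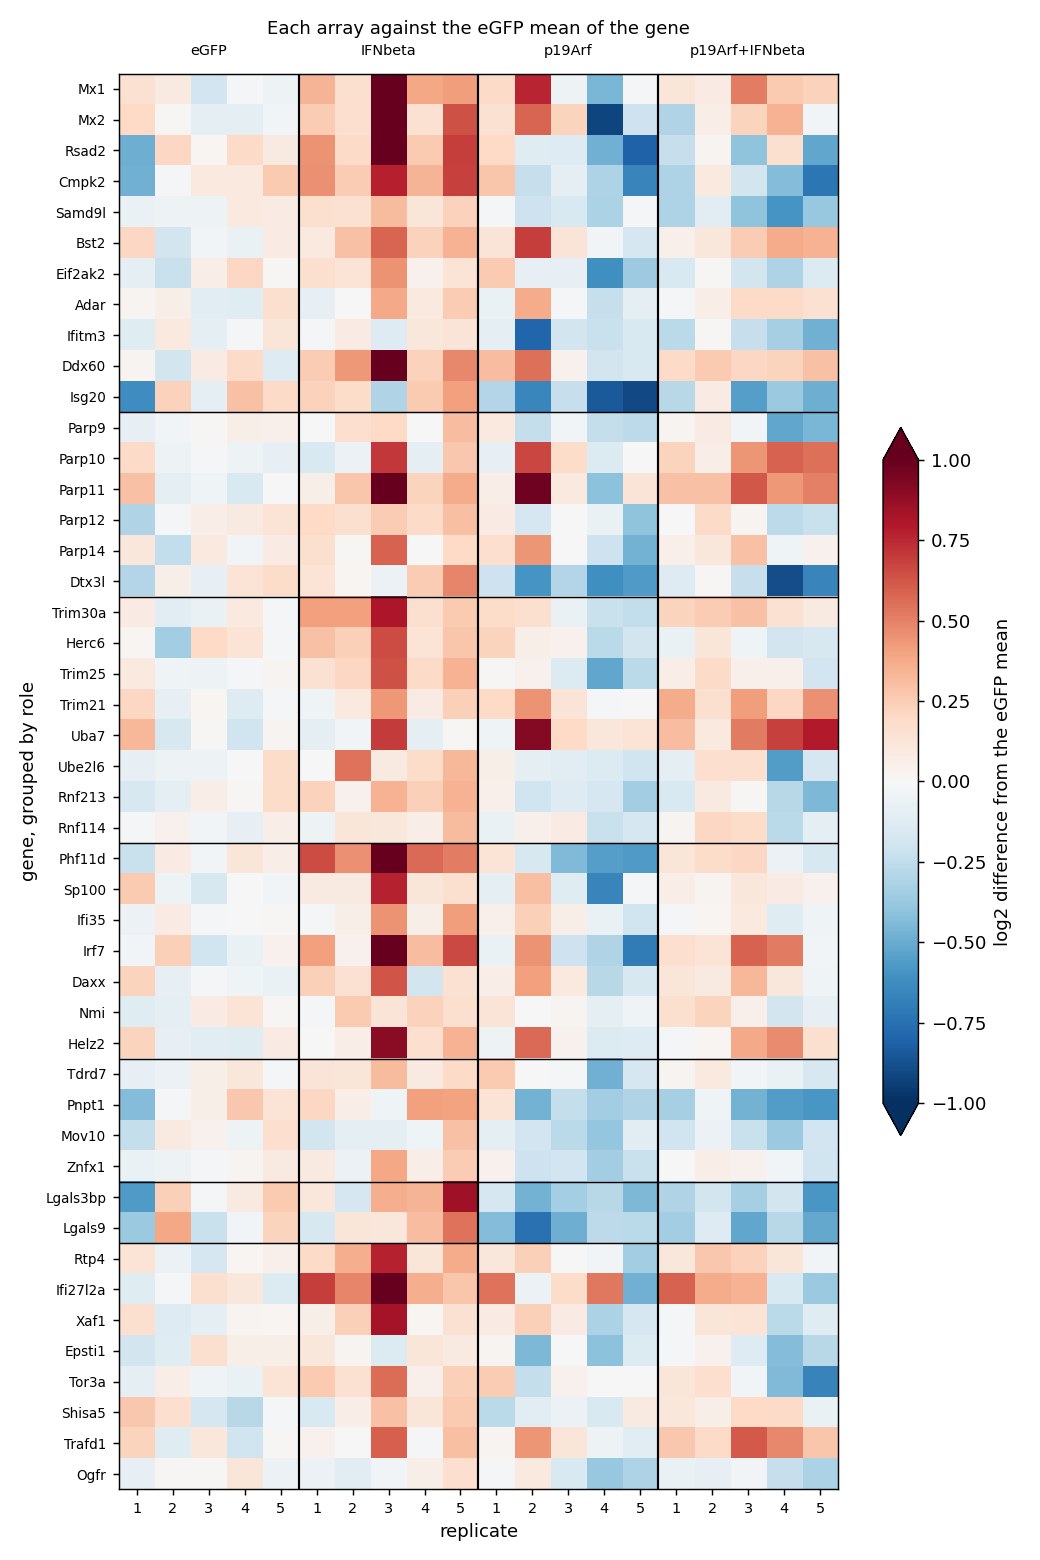
Each of the 46 genes (vertical axis, by role) on each of the 20 arrays (horizontal axis, by group and replicate), as the log2 difference from the eGFP mean of that gene; differences beyond 1 take the end colours. Most genes are above the eGFP mean on the IFNbeta arrays and most strongly on replicate 3, which is highest of all arrays in 27 genes.

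With IFNbeta, 45 of the 46 genes had a higher mean than with eGFP, against 44.2% of all genes. The median difference was 0.20 on the log2 scale, and -0.02 over all genes. It ranged from -0.03 for Mov10 to 0.73 for Phf11d. No gene on the arrays passed the limma test at an adjusted p under 0.05 (0% of 19938), and the adjusted p of all 46 members was 1. At an unadjusted p under 0.05, 17 members were higher, against 1.34% of all genes, and 0 were lower (1.45%). In 8 members all 5 IFNbeta arrays lay above all 5 eGFP arrays, namely Phf11d, Mx1, Ifi27l2a, Ddx60, Trim30a, Trim25, Parp12 and Samd9l (0.552% of all genes), and in 0 did they all lie below (0.346%). Without IFNbeta replicate 3, 43 members had the higher mean, the median was 0.17, and 9 were higher at an unadjusted p under 0.05 (1.55% of all genes). All IFNbeta arrays then lay above the eGFP arrays in 8 members, where 1.47% of all genes did so with 4 arrays against 5. After quantile normalization this count was 4 (0.547% of all genes), and without eGFP replicate 1 it was 13 (1.29%). In 19 of the 46 members the difference from eGFP shrank by over 1.5 times or changed sign when IFNbeta replicate 3 was left out.

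With p19Arf, 32 of the 46 genes had a lower mean than with eGFP and 14 a higher one, where 54.4% of all genes were higher. The median member difference was -0.09, and 0.02 over all genes. After quantile normalization the split was 21 lower to 25 higher, with a median of 0.01. No gene passed the adjusted threshold (0%), and the smallest adjusted p of a member was 0.661. Isg20, Lgals9, Dtx3l, Ifitm3, Lgals3bp and Mov10 were lower at an unadjusted p under 0.05, 6 members (4.4% of all genes), and 0 were higher (2.84%). The arrays of both groups overlapped in all 46 members, while they did not in 0.251% (higher) and 0.441% (lower) of all genes.

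With the combination, 23 members had a higher and 23 a lower mean than with eGFP, and 55% of all genes were higher. The median member difference was -0.00. It was 0.08 after quantile normalization, with 31 higher and 15 lower. Centring arrays on their medians gave 20 higher and 26 lower. No gene passed the adjusted threshold (0%), and the smallest adjusted p of a member was 0.234. Trim21, Trafd1, Uba7, Parp10 and Parp11 were higher at an unadjusted p under 0.05, 5 members (6.18% of all genes), and 6 were lower (11.4%), Samd9l, Pnpt1, Dtx3l, Lgals9, Mov10 and Ifitm3. The latter is a share of members near that of all genes. Samd9l was the member whose combination arrays all lay below the eGFP arrays (0.547% of all genes), and no member lay wholly above (0.782%).

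The combination was then set against IFNbeta alone. The stated viral load is the same for both groups, and its division between the vectors of the combination is not given. A lower dose of the IFNbeta vector and the presence of p19Arf therefore cannot be told apart. The mean was lower with the combination in 41 of the 46 genes and higher in 5, while 57.1% of all genes were higher. The median member difference was -0.27 and that of all genes 0.05. After quantile normalization the median was -0.11, with 32 lower and 14 higher, and with array weights 36 were lower and 10 higher. No gene passed the adjusted threshold on all 20 arrays (0%), and Samd9l had the smallest adjusted p, 0.0575. At an unadjusted p under 0.05, 21 members were lower (14% of all genes) and 1, Uba7, was higher (11.8%). In 7 members all combination arrays lay below all IFNbeta arrays, namely Cmpk2, Rsad2, Phf11d, Lgals3bp, Samd9l, Herc6 and Eif2ak2 (0.782% of all genes), and in 0 above (1.3%).

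Leaving out IFNbeta replicate 3 changed this comparison. Then 2351 genes passed at an adjusted p under 0.05, and 10 members fell with the combination, against 8.83% of all genes. They were Cmpk2 (-0.74), Pnpt1 (-0.67), Dtx3l (-0.60), Lgals3bp (-0.60), Rsad2 (-0.59), Isg20 (-0.59), Lgals9 (-0.56), Samd9l (-0.52), Phf11d (-0.49) and Rnf213 (-0.37). Uba7 rose by 0.53, and 2.96% of all genes were called higher. The adjusted p of these 11 genes ran from 0.0377 to 0.0431. The median member difference without that array was -0.16, smaller than with it, with 37 members lower and 9 higher.

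**Figure D3:**
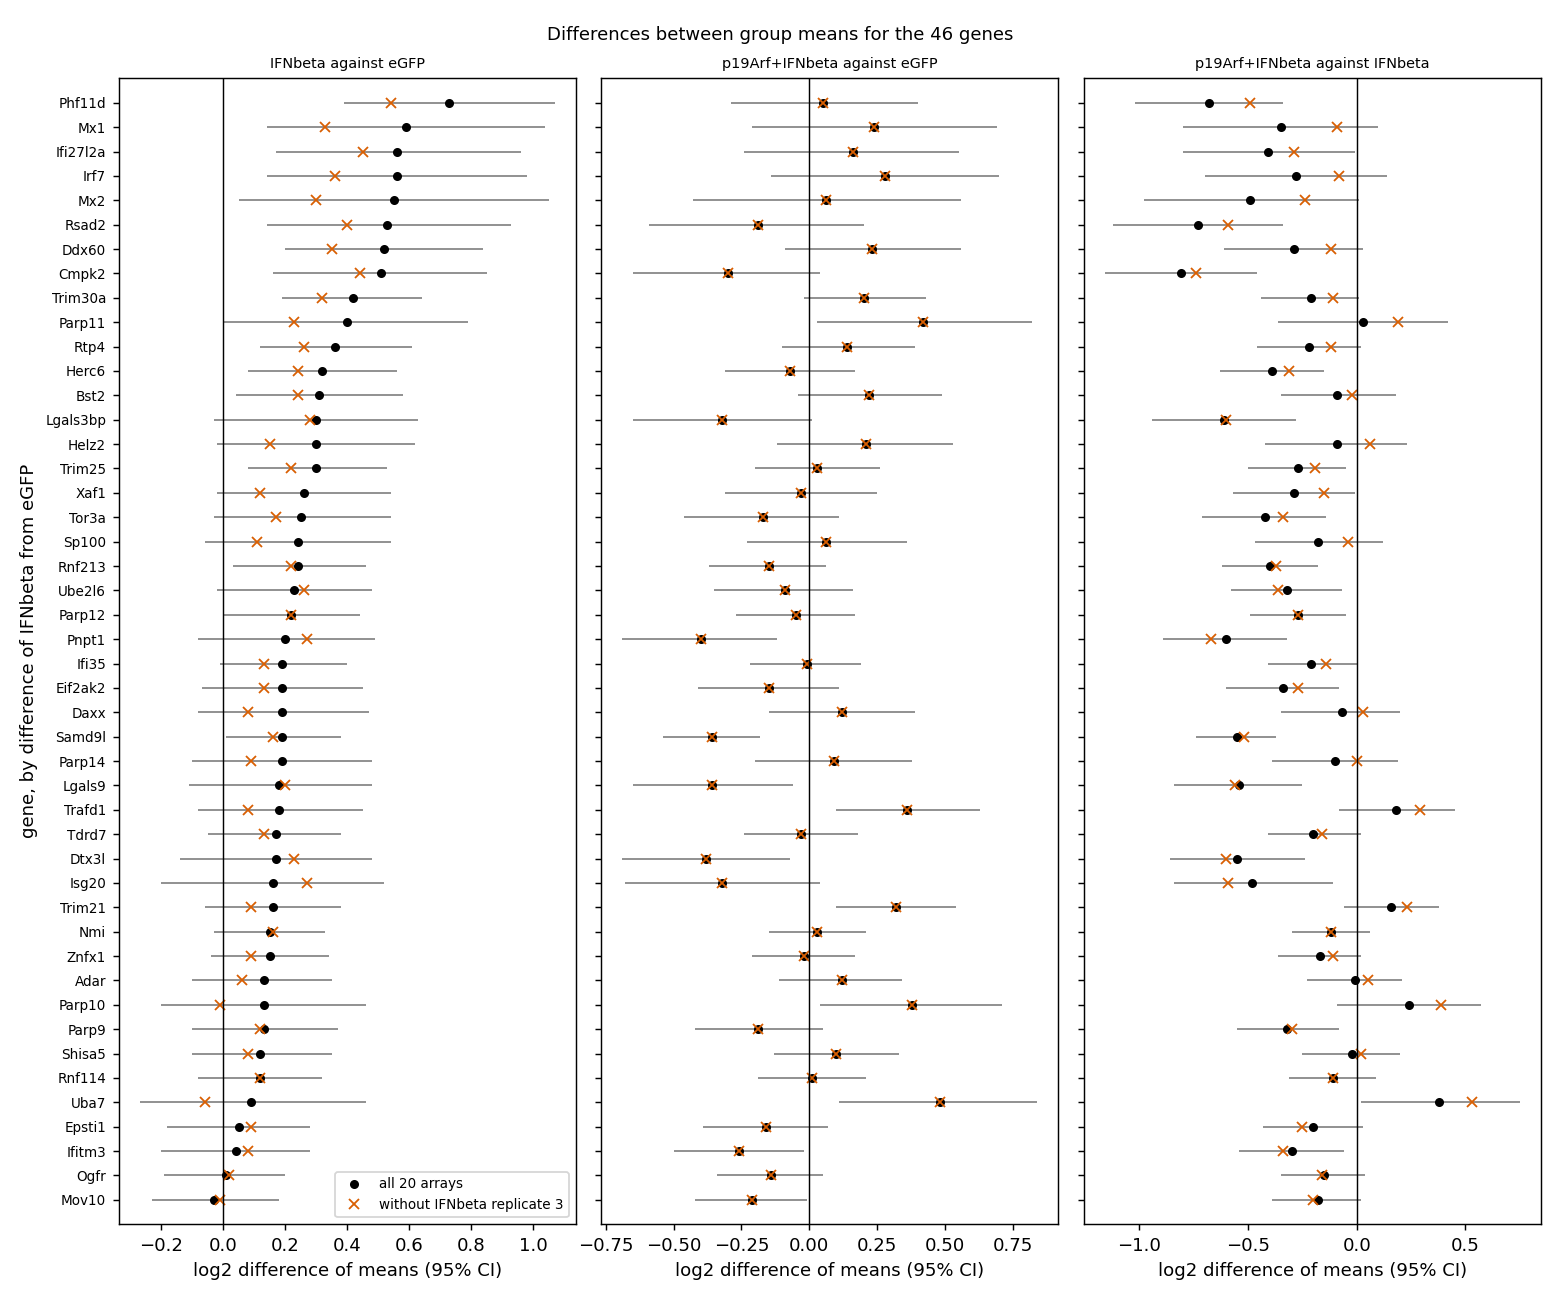
The log2 difference of group means of each gene (vertical axis, ordered by the difference of IFNbeta from eGFP) in 3 comparisons, as black points with 95% confidence intervals from all 20 arrays, and as crosses without IFNbeta replicate 3. Of the 46 genes, 45 lie above 0 in the left panel, 23 in the middle panel and 5 in the right panel.

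IFNbeta against p19Arf had the largest median member difference of the 6 comparisons between groups. The mean was higher with IFNbeta in 45 of 46 genes (45.5% of all genes), with a median difference of 0.33, and Uba7 was the exception at -0.17. After quantile normalization it was higher in 42, with a median of 0.21. At an unadjusted p under 0.05, 29 members were higher (8.48% of all genes) and 0 lower (12.4%). Of all genes, 5 (0.0251%) passed at an adjusted p under 0.05, and 1 of them was a member, Phf11d. The arrays did not overlap in 6 members, Phf11d, Dtx3l, Lgals9, Trim25, Samd9l and Parp12, all higher with IFNbeta (0.757% of all genes), and in 0 lower (1.14%). Without IFNbeta replicate 3 the mean was higher in 42 members, with a median of 0.26, and 22 were higher at an unadjusted p under 0.05 (15.1% of all genes).

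Small differences separated the combination from p19Arf alone, at the same stated viral load. The mean was higher with the combination than with p19Arf alone in 38 of 46 genes (46.9% of all genes), with a median of 0.08. Median centring gave 32. No gene passed the adjusted threshold (0%), and the smallest adjusted p was 0.998. At an unadjusted p under 0.05, 4 members were higher (1.83% of all genes), Irf7, Phf11d, Trim30a and Trafd1, and Samd9l was the 1 that was lower (1.24%). No member was free of overlap, while 0.16% of all genes were in the higher and 0.0953% in the lower direction.

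With the same limit on vector dose, the interaction asks whether the change with p19Arf differed between tumors with and without IFNbeta. It was negative in 37 of 46 members, with a median of -0.15 and of 0.01 over all genes, and no gene passed the adjusted threshold (adjusted p = 1 for all 46). It was negative in 4 members at an unadjusted p under 0.05 (0.492% of all genes) and positive in 0 (0.813%). These were Samd9l at -0.41 (SE 0.13), Cmpk2 at -0.61 (SE 0.24), Tor3a at -0.43 (SE 0.19) and Herc6 at -0.36 (SE 0.16). Without IFNbeta replicate 3 it was negative in 33 members, with a median of -0.11, and in 3 at an unadjusted p under 0.05 (0.978% of all genes).

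Among the blockers of viral RNA and particles, all 11 genes had a higher mean with IFNbeta than with eGFP, with a median of 0.31, and 7 were higher at an unadjusted p under 0.05 (1.34% of all genes). The median was 0.27 without IFNbeta replicate 3, and 3 were higher at that p (1.55% of all genes). Cmpk2, a mitochondrial nucleotide kinase encoded next to Rsad2, was at 8.49, 8.96, 9.07, 9.07 and 9.23 on the eGFP arrays. It was at 9.43, 9.22, 9.75, 9.31 and 9.65 with IFNbeta and at 8.66, 9.07, 8.79, 8.54 and 8.25 with the combination. Only the lowest IFNbeta array overlapped with the highest eGFP array, and no combination array reached an IFNbeta array. The difference of IFNbeta from eGFP was 0.51 (SE 0.17), or 0.44 without replicate 3, and that of the combination from IFNbeta was -0.81 (SE 0.17) with adjusted p = 0.15. Rsad2, or viperin, makes a chain-terminating nucleotide from CTP. It was likewise highest with IFNbeta, at 9.92 ± 0.29 with eGFP, 10.46 ± 0.36 with IFNbeta, 9.65 ± 0.39 with p19Arf and 9.73 ± 0.29 with the combination. Its difference of the combination from IFNbeta was -0.73 (SE 0.19).

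Samd9l, a cytoplasmic antiviral protein that also restrains cell growth, was the member closest to the threshold in both combination comparisons. It was at 10.27, 10.29, 10.29, 10.44 and 10.42 with eGFP and at 10.50, 10.49, 10.66, 10.46 and 10.57 with IFNbeta. With p19Arf it was at 10.33, 10.13, 10.19, 10.02 and 10.33, and with the combination at 10.03, 10.23, 9.94, 9.75 and 9.96. The 5 combination arrays all lay below the eGFP arrays, and the 5 IFNbeta arrays all lay above them. The difference of the combination was -0.36 (SE 0.09) from eGFP (adjusted p = 0.234) and -0.55 (SE 0.09) from IFNbeta (adjusted p = 0.0575). Samd9l was thus lower with the combination than with any other vector, in mean.

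Ddx60, a helicase linked to RNA sensing, and the large GTPases Mx1 and Mx2, which trap viral nucleoproteins and are defective in most inbred mouse strains, had their highest value on IFNbeta replicate 3. Ddx60 was at 8.62, 8.41, 8.67, 8.78 and 8.46 with eGFP, and at 8.84, 9.02, 9.79, 8.82 and 9.07 with IFNbeta. Mx1 was at 7.58, 7.52, 7.24, 7.42 and 7.38 with eGFP and at 7.77, 7.59, 9.07, 7.82 and 7.85 with IFNbeta. In both genes all IFNbeta arrays lay above the eGFP arrays, with replicate 3 far above the other 4. The difference of IFNbeta from eGFP was 0.52 (SE 0.15) for Ddx60 and 0.59 (SE 0.22) for Mx1, and 0.35 and 0.33 without that replicate. With the combination, Ddx60 was at 8.78, 8.85, 8.80, 8.81 and 8.88, close to or above the highest eGFP value. Mx1 was at 7.55, 7.51, 7.94, 7.69 and 7.66 there, and at 7.62, 8.19, 7.38, 6.97 and 7.41 with p19Arf. The differences of Mx2 were 0.55 with IFNbeta, -0.03 with p19Arf and 0.06 with the combination, each against eGFP, and that with IFNbeta was 0.30 without replicate 3.

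Eif2ak2 encodes the kinase PKR, which halts translation when it binds double-stranded RNA. It was at 9.71, 9.58, 9.87, 10.01 and 9.81 with eGFP, 9.96, 9.94, 10.25, 9.84 and 9.94 with IFNbeta and 9.65, 9.81, 9.62, 9.49 and 9.66 with the combination. The IFNbeta and eGFP arrays overlapped, and all combination arrays lay below the IFNbeta arrays. The combination differed from IFNbeta by -0.34 (SE 0.13). On the p19Arf arrays Eif2ak2 was at 10.06, 9.72, 9.72, 9.19 and 9.44, from the lowest value of the gene to one above all eGFP arrays. Adar, which edits double-stranded RNA, differed from eGFP by 0.13, -0.01 and 0.12 with IFNbeta, p19Arf and the combination, and by 0.06 with IFNbeta without replicate 3.

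Bst2, or tetherin, holds budding virus at the cell surface. It was at 10.45, 10.06, 10.21, 10.17 and 10.32 with eGFP, 10.34, 10.53, 10.82, 10.47 and 10.59 with IFNbeta, 10.37, 10.93, 10.37, 10.21 and 10.07 with p19Arf and 10.29, 10.35, 10.49, 10.61 and 10.59 with the combination. The 4 groups overlapped. The combination differed from IFNbeta by -0.09 (SE 0.13) and from eGFP by 0.22 (SE 0.13).

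Isg20 and Ifitm3 had lower means with p19Arf than with eGFP. With IFNbeta, Isg20 differed from eGFP by 0.16 (SE 0.17), or by 0.27 without replicate 3. Isg20, an exonuclease that degrades single-stranded RNA, was at 9.89, 10.74, 10.41, 10.80 and 10.70 with eGFP and at 10.22, 9.86, 10.28, 9.67 and 9.61 with p19Arf. It was at 10.74, 10.69, 10.21, 10.77 and 10.92 with IFNbeta and 10.23, 10.59, 9.96, 10.14 and 10.02 with the combination. eGFP replicate 1 lay among the p19Arf arrays and the other 4 above them. The difference of p19Arf from eGFP was -0.58 (SE 0.17), the largest of a member in that comparison, with adjusted p = 0.661. Ifitm3, which blocks fusion of viral and endosomal membranes, was at 12.73, 12.95, 12.75, 12.83 and 12.97 with eGFP and at 12.75, 12.06, 12.67, 12.63 and 12.70 with p19Arf. With IFNbeta it was at 12.83, 12.93, 12.72, 12.96 and 12.98 and with the combination at 12.58, 12.86, 12.62, 12.52 and 12.37. p19Arf replicate 2 was the lowest of the 20 arrays. The difference of p19Arf from eGFP was -0.28 (SE 0.12), with adjusted p = 0.661, and that of IFNbeta was 0.04 (SE 0.12).

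**Figure D4:**
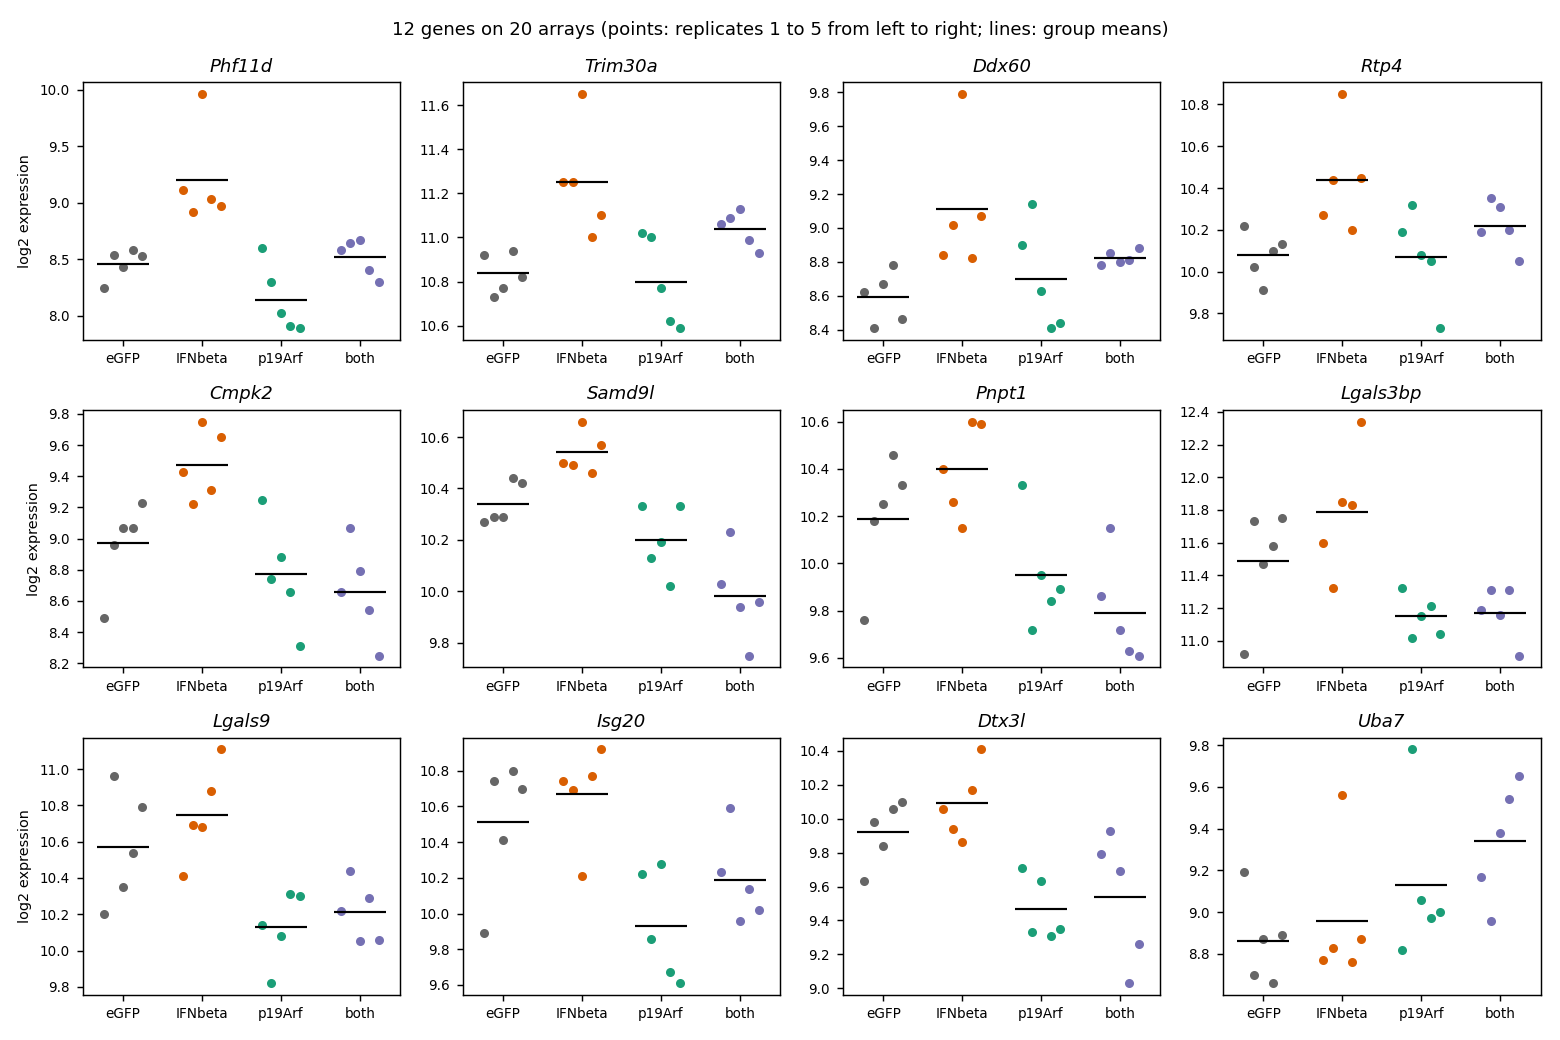
Log2 expression of 12 genes on each of the 20 arrays, by vector group ("both" is the combination); points are replicates 1 to 5 from left to right and lines are group means. The vertical axis differs between genes. IFNbeta replicate 3 is the highest point of Phf11d (9.96), Trim30a, Ddx60 and Rtp4, but not of Pnpt1, Lgals9, Isg20 or Dtx3l.

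The ADP-ribosyltransferases differed among themselves. All 6 genes of that role had a higher mean with IFNbeta than with eGFP, from 0.13 to 0.40. Of them 2, Parp11 and Parp12, were higher at an unadjusted p under 0.05 (1.34% of all genes). Without IFNbeta replicate 3 this count was 0 (1.55%). Dtx3l is a ubiquitin ligase that works in a complex with Parp9. It was at 9.63, 9.98, 9.84, 10.06 and 10.10 with eGFP, 10.06, 9.94, 9.86, 10.17 and 10.41 with IFNbeta, 9.71, 9.33, 9.63, 9.31 and 9.35 with p19Arf and 9.79, 9.93, 9.69, 9.03 and 9.26 with the combination. The p19Arf arrays lay below all IFNbeta arrays, and the highest p19Arf array lay just above the lowest eGFP array. The difference from eGFP was -0.45 (SE 0.15) with p19Arf, with adjusted p = 0.661, and -0.38 (SE 0.15) with the combination. Its partner Parp9 differed by -0.14 and -0.19.

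Parp12, which joins stress granules, was at 10.98, 11.26, 11.35, 11.37 and 11.42 with eGFP and 11.48, 11.44, 11.53, 11.47 and 11.58 with IFNbeta. It was at 11.36, 11.11, 11.28, 11.21 and 10.88 with p19Arf and 11.28, 11.47, 11.31, 11.02 and 11.06 with the combination. The 5 IFNbeta arrays lay closer together than those of the other groups and above all eGFP arrays, by a mean of 0.22 (SE 0.11). Parp10 and Parp11, which attach single ADP-ribose units, had their highest means with the combination, 9.48 ± 0.22 and 8.68 ± 0.14. Their differences from eGFP were 0.38 (SE 0.16) and 0.42 (SE 0.19), and with IFNbeta 0.13 and 0.40, or -0.01 and 0.23 without replicate 3. Parp14 differed from eGFP by 0.19, -0.02 and 0.09 with IFNbeta, p19Arf and the combination, and by 0.09 with IFNbeta without replicate 3.

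Among the ubiquitin, Isg15 and TRIM genes, all 8 had a higher mean with IFNbeta than with eGFP, with a median of 0.24, and 4 were higher at an unadjusted p under 0.05 (1.34% of all genes). Without IFNbeta replicate 3 the mean was higher in 7 and 3 were higher at that p (1.55% of all genes). Trim30a, a mouse TRIM protein that restrains NF-kB signalling, was at 10.92, 10.73, 10.77, 10.94 and 10.82 with eGFP and at 11.25, 11.25, 11.65, 11.00 and 11.10 with IFNbeta. With p19Arf it was at 11.02, 11.00, 10.77, 10.62 and 10.59, and with the combination at 11.06, 11.09, 11.13, 10.99 and 10.93. All IFNbeta arrays lay above the eGFP arrays, and the combination arrays lay between, overlapping with both. The difference of IFNbeta from eGFP was 0.42 (SE 0.11), and 0.32 without replicate 3. Trim25, the ubiquitin ligase that activates Rig-I, was also free of overlap, with a difference of 0.30 (SE 0.11). Herc6, the main ligase for Isg15 in mice, differed from eGFP by 0.32 (SE 0.12) with IFNbeta and by -0.07 with the combination.

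Uba7, the enzyme that activates Isg15 for transfer to proteins, had its highest mean with the combination. It was at 9.19, 8.70, 8.87, 8.66 and 8.89 with eGFP and 8.77, 8.83, 9.56, 8.76 and 8.87 with IFNbeta. It was at 8.82, 9.78, 9.06, 8.97 and 9.0 with p19Arf and 9.17, 8.96, 9.38, 9.54 and 9.65 with the combination. IFNbeta replicate 3 and p19Arf replicate 2 each lay far above the other 4 arrays of their group, and the combination arrays ran from within the eGFP range to above it. The difference of the combination was 0.48 (SE 0.18) from eGFP, with adjusted p = 0.234, and 0.38 (SE 0.18) from IFNbeta. With the spread of each array (the SD of all its log2 values) in the model, these differences were 0.23 and 0.11. Ube2l6, which receives Isg15 from Uba7, was at 10.25 ± 0.11, 10.48 ± 0.21, 10.15 ± 0.10 and 10.16 ± 0.30 with eGFP, IFNbeta, p19Arf and the combination, a different order from Uba7.

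Trim21, a cytosolic antibody receptor with ubiquitin ligase activity, was at 9.29, 9.0, 9.10, 8.95 and 9.07 with eGFP and 9.45, 9.24, 9.50, 9.29 and 9.54 with the combination. It was at 9.04, 9.18, 9.51, 9.16 and 9.32 with IFNbeta and 9.28, 9.53, 9.21, 9.07 and 9.08 with p19Arf. All groups overlapped with eGFP, where replicate 1 was highest. The combination differed from eGFP by 0.32 (SE 0.10), with adjusted p = 0.234. Rnf213, a large ubiquitin ligase, was at 11.40, 11.46, 11.63, 11.57 and 11.74 with eGFP and 11.79, 11.60, 11.91, 11.80 and 11.91 with IFNbeta. Under p19Arf it was at 11.61, 11.36, 11.43, 11.39 and 11.21, and with the combination at 11.41, 11.65, 11.57, 11.28 and 11.11. Its arrays overlapped between all groups, and the combination differed from IFNbeta by -0.40 (SE 0.11). Rnf114 differed from eGFP by 0.12, -0.06 and 0.01 with IFNbeta, p19Arf and the combination.

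Phf11d, a zinc finger protein of the PHD type, had the largest difference between IFNbeta and eGFP of the 46 genes. It was at 8.24, 8.54, 8.43, 8.58 and 8.53 with eGFP and 9.11, 8.92, 9.96, 9.03 and 8.97 with IFNbeta. It was at 8.60, 8.30, 8.02, 7.91 and 7.89 with p19Arf and 8.58, 8.64, 8.67, 8.40 and 8.30 with the combination. All IFNbeta arrays lay above the arrays of the other 3 groups, replicate 3 most of all, while p19Arf replicates 3 to 5 lay below all eGFP arrays. Phf11d was higher with IFNbeta than with p19Arf by 1.05 (SE 0.16), or 2.07-fold with a 95% confidence interval of 0.71 to 1.39 on the log2 scale, with adjusted p = 0.0379, and by 0.86 with adjusted p = 0.0181 without IFNbeta replicate 3. The difference of IFNbeta from eGFP was 0.73 (SE 0.16), or 1.66-fold, and 0.54 without replicate 3, and the combination differed from eGFP by 0.05 (SE 0.16). The call on Phf11d in the comparison with p19Arf was lost after quantile normalization (adjusted p = 0.136), with only those 2 groups in the model (0.189), with the array spread (0.152) and with a replicate block (0.0506). Leaving out 1 array at a time, it was also lost in 10 of 20 cases, with adjusted p from 0.00772 to 0.128. These were the omissions of eGFP replicate 3, 4 or 5, IFNbeta replicate 1 or 4, combination replicate 3 and p19Arf replicate 2, 3, 4 or 5.

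Irf7, the transcription factor that amplifies interferon production, was at 9.79, 10.06, 9.62, 9.75 and 9.86 with eGFP and 10.23, 9.86, 11.17, 10.13 and 10.48 with IFNbeta. It was at 9.75, 10.27, 9.61, 9.52 and 9.12 with p19Arf and 9.99, 9.96, 10.41, 10.34 and 9.79 with the combination. Its values within a group were widely spread, and IFNbeta replicate 2 lay within the eGFP range. The difference of IFNbeta from eGFP was 0.56 (SE 0.20), and 0.36 without replicate 3. Sp100, a scaffold of PML nuclear bodies, was at 10.67, 10.36, 10.25, 10.41 and 10.38 with eGFP and 10.50, 10.50, 11.18, 10.53 and 10.57 with IFNbeta. With p19Arf it was at 10.32, 10.71, 10.29, 9.75 and 10.40, and with the combination at 10.48, 10.44, 10.52, 10.49 and 10.45. The combination arrays of Sp100 lay within 0.08 of each other, and IFNbeta replicate 3 lay apart from the other 19 arrays.

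The other genes of the nuclear group had smaller differences. Daxx, a chaperone of histone variant H3.3, differed from eGFP by 0.19 with IFNbeta, or 0.08 without replicate 3, and by 0.12 with the combination. Helz2, a coactivator of nuclear receptors, differed by 0.30, or 0.15 without that array, and by 0.21. Nmi and Ifi35, which bind each other, differed by 0.15 and 0.19 with IFNbeta and by 0.03 and -0.01 with the combination. Sp100 differed from eGFP by 0.24 with IFNbeta, or 0.11 without replicate 3. All 7 genes of this role had a higher mean with IFNbeta than with eGFP. Of them 2, Phf11d and Irf7, were higher at an unadjusted p under 0.05 (1.34% of all genes), Irf7 only with replicate 3 included. Without that array 1.55% of all genes were higher at that p.

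Of the 4 RNA granule and RNA processing genes, all had a lower mean than eGFP with p19Arf and with the combination. Pnpt1, a mitochondrial exoribonuclease, was at 9.76, 10.18, 10.25, 10.46 and 10.33 with eGFP and 10.40, 10.26, 10.15, 10.60 and 10.59 with IFNbeta. It was at 10.33, 9.72, 9.95, 9.84 and 9.89 with p19Arf and 9.86, 10.15, 9.72, 9.63 and 9.61 with the combination. eGFP replicate 1 lay below the other 4 eGFP arrays and within the combination range, and the highest combination value equalled the lowest IFNbeta value to 2 decimals. The difference of the combination was -0.40 (SE 0.14) from eGFP (adjusted p = 0.234) and -0.60 (SE 0.14) from IFNbeta (adjusted p = 0.15).

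Mov10, an RNA helicase that restrains retroelements, was the 1 member with a lower mean with IFNbeta than with eGFP. It was at 10.62, 10.95, 10.90, 10.81 and 11.03 with eGFP and 10.68, 10.76, 10.77, 10.82 and 11.15 with IFNbeta. The values were 10.76, 10.67, 10.59, 10.47 and 10.75 with p19Arf and 10.66, 10.80, 10.64, 10.49 and 10.67 with the combination. The groups overlapped, and the difference of IFNbeta from eGFP was -0.03 (SE 0.10). Tdrd7, a Tudor domain protein of RNA granules, differed from eGFP by 0.17, -0.08 and -0.03 with IFNbeta, p19Arf and the combination. Znfx1, a helicase-like sensor of viral RNA, differed by 0.15, -0.18 and -0.02, the first being 0.09 without IFNbeta replicate 3.

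The galectin Lgals9 and the galectin-binding Lgals3bp were lower with p19Arf, with or without IFNbeta, than with eGFP, in mean. Lgals9, a secreted lectin that binds the checkpoint receptor Tim-3, was at 10.20, 10.96, 10.35, 10.54 and 10.79 with eGFP and 10.41, 10.69, 10.68, 10.88 and 11.11 with IFNbeta. It was at 10.14, 9.82, 10.08, 10.31 and 10.30 with p19Arf and 10.22, 10.44, 10.05, 10.29 and 10.06 with the combination. All p19Arf arrays lay below all IFNbeta arrays, and eGFP replicates 1 and 3 were in or near the p19Arf range. Its difference from eGFP was -0.44 (SE 0.14) with p19Arf (adjusted p = 0.661) and -0.36 (SE 0.14) with the combination.

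Lgals3bp, a secreted glycoprotein that binds galectin 3, was at 10.92, 11.73, 11.47, 11.58 and 11.75 with eGFP and 11.60, 11.32, 11.85, 11.83 and 12.34 with IFNbeta. It was at 11.32, 11.02, 11.15, 11.21 and 11.04 with p19Arf and 11.19, 11.31, 11.16, 11.31 and 10.91 with the combination. eGFP replicate 1 was as low as the combination's lowest array, and IFNbeta replicate 5 was the highest of the 20. The difference of the combination from IFNbeta was -0.61 (SE 0.16), with adjusted p = 0.15, and that of p19Arf from eGFP was -0.34 (SE 0.16), with adjusted p = 0.661.

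Rtp4, a chaperone that carries receptors to the cell surface, led the remaining 8 genes by its p against eGFP. It was at 10.22, 10.02, 9.91, 10.10 and 10.13 with eGFP and 10.27, 10.44, 10.85, 10.20 and 10.45 with IFNbeta. The values were 10.19, 10.32, 10.08, 10.05 and 9.73 with p19Arf and 10.19, 10.35, 10.31, 10.20 and 10.05 with the combination. IFNbeta replicate 4 lay just below the highest eGFP array and the other 4 above it, and the difference of IFNbeta was 0.36 (SE 0.12), or 0.26 without replicate 3. Ifi27l2a, a small mitochondrial and nuclear membrane protein, differed from eGFP by 0.56 (SE 0.19) with IFNbeta, where no array overlapped, and by 0.16 with the combination. Tor3a, an ATPase of the torsin family, differed by 0.25 and -0.17.

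Trafd1, which dampens Toll-like receptor signalling, was highest in mean with the combination. It was at 10.62, 10.28, 10.51, 10.20 and 10.41 with eGFP and 10.67, 10.59, 11.01, 10.88 and 10.68 with the combination. It was at 10.44, 10.40, 11.00, 10.38 and 10.70 with IFNbeta and 10.43, 10.84, 10.52, 10.35 and 10.29 with p19Arf. The combination arrays overlapped with eGFP through replicate 1 of eGFP, and IFNbeta replicate 3 was about as high as the highest combination array. The combination differed from eGFP by 0.36 (SE 0.13), with adjusted p = 0.234. Shisa5, a death-promoting protein of the endoplasmic reticulum, was at 11.41, 11.31, 10.97, 10.86 and 11.13 with eGFP and 10.99, 11.21, 11.43, 11.26 and 11.40 with IFNbeta. With p19Arf it was at 10.87, 11.03, 11.08, 10.99 and 11.23 and with the combination at 11.25, 11.20, 11.34, 11.33 and 11.07. Its groups overlapped, and its differences from eGFP were 0.12, -0.10 and 0.10 with IFNbeta, p19Arf and the combination. Xaf1, which binds the apoptosis inhibitor Xiap, differed from eGFP by 0.26, -0.02 and -0.03 in the same order, and by 0.12 with IFNbeta without replicate 3. Epsti1 differed by 0.05, -0.19 and -0.16. Ogfr, the receptor of opioid growth factor, differed by 0.01, -0.15 and -0.14.

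The spread of an array, the SD of all its log2 values, was associated with part of these genes, in shares close to or below those of all genes. It ran from 1.99 to 2.15 over the 20 arrays, with means of 2.11 in the eGFP and IFNbeta groups and 2.06 in the p19Arf and combination groups. In a limma fit with the spread as a covariate beside the groups, 11 members were higher on arrays of larger spread at an adjusted p under 0.05 (27.3% of all genes) and 3 were lower (26.2%). The members higher with spread were Isg20, Dtx3l, Pnpt1, Epsti1, Parp9, Ube2l6, Ifitm3, Parp12, Nmi, Mov10 and Ogfr. Dtx3l was higher by 0.49 (SE 0.08) per 0.1 of spread, with adjusted p = 5.63e-05, and Isg20 by 0.52 (SE 0.11). Uba7 (-0.50, SE 0.11), Parp10 (-0.35) and Helz2 (-0.34) were lower.

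The genes of the spread and those of the IFNbeta difference were partly separate. Phf11d differed by 0.02 (SE 0.15) per 0.1 of spread and Trim30a by -0.03 (SE 0.09). With the spread in the model, the difference of IFNbeta from eGFP was 0.73 for Phf11d and 0.42 for Trim30a, as without it. The mean spread was 2.11 in both of these groups, so that model could change this comparison little for any gene. The difference of p19Arf from eGFP was -0.35 for Isg20 and -0.23 for Dtx3l in that model, and -0.58 and -0.45 without the spread. The difference of the combination from IFNbeta was -0.38 for Pnpt1, -0.47 for Samd9l and -0.65 for Cmpk2 with the spread. For Dtx3l it was -0.28, and -0.55 without the spread. From eGFP, the combination differed by -0.13 for Dtx3l and -0.20 for Pnpt1 with the spread, and by -0.38 and -0.40 without it. With the spread, 27 members were higher and 19 lower in the combination than in eGFP, and 4 higher and 42 lower than in IFNbeta.

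**Figure D5:**
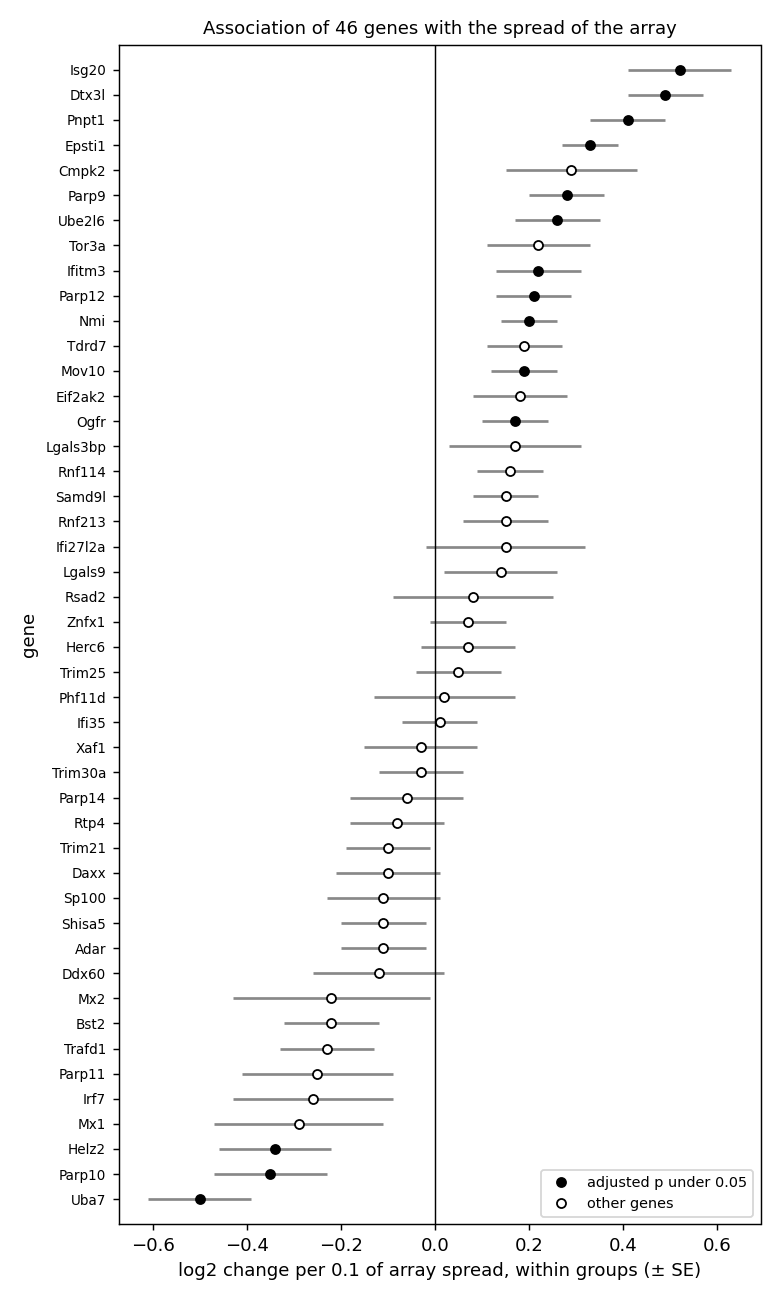
The log2 change of each gene (vertical axis) per 0.1 of array spread, within vector groups, with its SE; filled points passed an adjusted p under 0.05. Isg20 and Dtx3l lie at the upper end, at 0.52 and 0.49, and Uba7 at the lower end, at -0.50, while Phf11d lies near 0.

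Around the group means, the values of most of the 46 genes were positively correlated from array to array. The correlation of a pair of members had a median of 0.38 over 1035 pairs and was above 0 in 77.6% of them, and the median was 0.36 without IFNbeta replicate 3. All pairs share the same 20 arrays. Ddx60 (0.61) and Mx2 (0.58) had the highest median correlation with the other members. Lgals9 (-0.06) and Ifitm3 (-0.10) had the lowest. The closest partner of Eif2ak2 was Tdrd7 (0.93), that of Cmpk2 was Rnf213 (0.92), and that of Uba7 was Parp10 (0.93). Both Uba7 and Parp10 were lower on arrays of larger spread.

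Other genes of the pathway were counted from lists. Of 22 genes of the Ifit, Oas, Schlafen and Ifi200 families, 19 were measured and all 19 had a higher mean with IFNbeta than with eGFP, with a median of 0.42, 12 of them at an unadjusted p under 0.05 (1.34% of all genes). The median was 0.29 without IFNbeta replicate 3, and 6 were higher at that p (1.55%). Their median was -0.30 for the combination against IFNbeta, with 2 higher means, and 10 were lower at an unadjusted p under 0.05 (14% of all genes). Without that array it was -0.27, and 8 were lower at that p (20.2%). In that setting 3 of the 19 passed the adjusted threshold, where 8.83% of all genes were called lower and 2.96% higher. Of 14 genes of interferon signalling, 12 were measured and 9 were higher with IFNbeta, with a median of 0.07. Usp18, which removes Isg15 from proteins and damps the receptor, was at 9.88 ± 0.21 with eGFP, 10.47 ± 0.35 with IFNbeta, 9.68 ± 0.33 with p19Arf and 9.71 ± 0.23 with the combination. Ifnb1 was at 6.10 ± 0.14, 6.21 ± 0.26, 6.00 ± 0.23 and 6.03 ± 0.23 in that order, and the labels do not say whether its probe set detects the vector's insert. On all 20 arrays none of these genes passed the adjusted threshold in a comparison with eGFP or of the combination with IFNbeta. For IFNbeta against p19Arf, 1 of the 19 family genes passed (0.0251% of all genes).

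Marker lists of other cells were summed as mean log2 values on each array. Macrophage and monocyte markers (11 of 12 measured) were at 10.29 to 10.70 with eGFP, 10.28 to 10.74 with IFNbeta, 9.99 to 10.64 with p19Arf and 9.97 to 10.74 with the combination. T cell markers (7 of 9) were at 7.83 to 8.12, 7.97 to 8.49, 7.95 to 8.19 and 8.02 to 8.77 in the same order. NK cell markers (7 of 7) were at 7.07 to 7.29, 7.30 to 7.52, 7.01 to 7.32 and 7.05 to 7.90. Of these 7 markers, 5 had a higher mean with IFNbeta than with eGFP. The differences were 0.69 for Gzmb, 0.44 for Gzma, 0.19 for Klrk1, 0.12 for Prf1 and 0.10 for Eomes. Ncr1 and Klrb1c were lower, at -0.13 and -0.15. Skeletal muscle markers (7 of 7) had means of 7.61, 8.55, 8.18 and 8.49. On single arrays they ran from 7.29 to 8.13, 7.31 to 9.74, 7.31 to 9.12 and 7.41 to 9.38. All 7 had a higher mean with IFNbeta than with eGFP, with a median difference of 0.89, or 0.86 without IFNbeta replicate 3. At an unadjusted p under 0.05, 5 were higher (1.34% of all genes), or 3 without that array (1.55%). Proliferation markers had means of 10.95, 11.00, 10.83 and 10.65, and lung and epithelial markers of 6.72, 6.67, 6.79 and 6.82. The part of these markers in the differences of the interferon stimulated genes was not tested. The table carries no detection call, so no marker could be called absent, and the sources name no marker that defines LLC-1 cells.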

How the data were processed

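Values came from 1 deposited table of 35556 probe sets on 20 arrays, 5 per group. The authors deposited log2 expression values that were already summarised and normalized, and the log base was read from their range (2.33 to 14.7). The submitters' processing notes list GCOS and Affymetrix Expression Console. How probes were summarised is not stated there. Gene names came from the platform annotation, updated to GRCm38.p6, and each gene was represented by its single-symbol probe set with the highest mean. Genes of near-identical families can share probe sequence.

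All 20 arrays were fitted in limma 3.58.1 (R 4.3.3) with 1 mean per group (16 residual degrees of freedom), eBayes and 2-sided tests adjusted by Benjamini-Hochberg over 19938 genes. The number of arrays limits the precision. The members and lists were chosen with earlier results of these data known. Given on every array were the 5 members with the smallest p in each of 4 comparisons, the member of each role with the highest mean, and Irf7, Mx1, Eif2ak2 and Bst2. Other members are given by differences, and some of them, such as Rsad2 and Ube2l6, also by group means ± SD. The association with array spread was added after seeing the data. Fits were tested on simulated data with independent noise for each gene. The simulation held no effect shared by the genes of an array, so it does not show how calls hold under such effects. Alternatives were normalization, array weights, moderation, probe set choice, low genes left out, spread, replicate block and each array left out.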

Additional observations from a re-analysis of the deposited data

Results flagged for a closer look

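In 8 of 100 groups of 5 arrays (24 named genes and the member mean, in 4 vector groups), 1 array lay far from the other 4 by Dixon's gap ratio at the 95% level. Chance gives about 1 in 20 for independent groups. These groups share the same 20 arrays and hold correlated genes, many picked by p in these data, so that rate is no test of the count. IFNbeta replicate 3 was the array apart in 6 of the 8. There Phf11d was at 9.96 (others 8.92 to 9.11) and Ddx60 at 9.79 (others 8.82 to 9.07). Mx1 was at 9.07 (others 7.59 to 7.85) and Sp100 at 11.18 (others 10.50 to 10.57). Eif2ak2 was at 10.25 (others 9.84 to 9.96) and Uba7 at 9.56 (others 8.76 to 8.87). The other 2 were on p19Arf replicate 2, where Uba7 was at 9.78 (others 8.82 to 9.06) and Ifitm3 at 12.06 (others 12.63 to 12.75).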

How the results depend on the processing

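For the 5 members with the smallest p in each of 4 comparisons, no difference changed sign in any of the 29 alternative settings. They were picked by p in these same data, so a kept sign is not independent support. Over all 46 members, 4 changed sign in some setting for IFNbeta against eGFP, Parp10 and Uba7 among them, 22 for p19Arf against eGFP, 14 for the combination against eGFP and 10 for the combination against IFNbeta. The median of the members kept its sign too, except for the combination against eGFP, where it lay near 0, from -0.04 with median centring to 0.08 with quantile normalization, and for p19Arf against eGFP, where it was 0.01 after quantile normalization in place of -0.09. In all settings the spread between 5 arrays limits which differences can be told from 0. The counts of calls did depend on the setting, and the cause was not tested. Quantile normalization moved the median member difference of the combination from IFNbeta to -0.11. It left 0 genes past the adjusted threshold for IFNbeta against p19Arf, with 18 members at an unadjusted p under 0.05, and 3 members for the combination against p19Arf. Array weights gave 5 genes for IFNbeta against eGFP and 166 for the combination against eGFP, 1 of them a member, Samd9l (adjusted p = 0.0488). They gave 1730 genes for the combination against IFNbeta (8 members) and 4495 for IFNbeta against p19Arf (21 members). At an unadjusted p under 0.05 they gave 11 members for p19Arf against eGFP, all lower (9.59% of all genes), and 8 for the combination against p19Arf, 7 of them higher (3.6%). The array spread as a covariate left 3 members for p19Arf against eGFP, 2 for the combination against eGFP, and 0 genes for IFNbeta against p19Arf. Median centring, or leaving out the 25% of genes with the lowest means, gave 1 gene for the combination against IFNbeta, Samd9l. Without those low genes 1 gene passed for IFNbeta against p19Arf, and with only those 2 groups in the model 0 did.

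Leaving out 1 array at a time, members at an unadjusted p under 0.05 numbered 9 to 21 for IFNbeta against eGFP, lowest without IFNbeta replicate 3. They numbered 3 (without eGFP replicate 2 or 5) to 11 (without p19Arf replicate 1) for p19Arf against eGFP. For the combination they numbered 5 to 14 against eGFP, with 5 without eGFP replicate 5, 6 without combination replicate 4 or 5 and 7 without eGFP replicate 2. Against p19Arf they numbered 1 (without combination replicate 3 or p19Arf replicate 3, 4 or 5) to 11 (without p19Arf replicate 2). Genes past the adjusted threshold numbered 0 to 84 for the combination against eGFP, highest without eGFP replicate 1, and 0 to 2351 for the combination against IFNbeta, highest without IFNbeta replicate 3. For IFNbeta against p19Arf they numbered 0 to 28, highest without p19Arf replicate 1. They were 0 without eGFP replicate 3, 4 or 5, IFNbeta replicate 4, combination replicate 3, or p19Arf replicate 2, 3, 4 or 5.

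Replicate numbers are only names here. Deviations of same-numbered arrays from their group means correlated at -0.62 to 0.66 (median -0.05), above 0.1 in 11 of 30 pairs. With a replicate block, 1 gene passed for IFNbeta against p19Arf in place of 5, and it was not Phf11d (adjusted p = 0.0506).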

Other observations

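Interferon gamma associated genes (12 of 17 measured, guanylate-binding proteins and immunoproteasome subunits among them) were followed beside the 46 genes, and the difference between the lists was not tested. Their median difference from eGFP was 0.13 with IFNbeta, 0.03 with p19Arf and 0.20 with the combination. At an unadjusted p under 0.05, 5 of the 12 were higher with the combination than with eGFP (6.18% of all genes) and 0 were higher with IFNbeta (1.34%). None passed the adjusted threshold in these comparisons. In the same promoters, the gamma activated site (TTC, any 3 bases, GAA) was found in 8 of 38 members (21.1%) and 9.55% of all genes.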
